A study of Homo sapiens with 6 samples.

Results

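22Rv1, an established human prostate cancer cell line, was treated with vehicle or with Drug_CN27, a small molecule directed, per the title of the study, at the linker histone variant H1-10. All 13321 genes with at least 1 TPM (transcripts per 1000000) in at least 2 of the 4 libraries of these groups were described, out of 20297 genes in the table. The other 6976 genes did not reach that level. Each group had 2 libraries of polyadenylated RNA. Drug_CN27 was given at its IC50, the concentration for 50% of maximal inhibition, and neither the concentration nor the duration nor the vehicle is given in the sources used here. Another group of 2 libraries, from cells treated with Drug_0120 at its own IC50, entered the fit and is set beside Drug_CN27 near the end. All 3 groups were the same cell line, grown by the supplier's recommendations, and the labels name no genetic change. The labels do not state whether the 2 libraries of a group stem from separate cultures. P-values therefore reflect the spread between libraries alone, and that spread may be technical.

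Cells meet a shortage of amino acids, misfolded protein or other stress with the integrated stress response. Kinases phosphorylate the initiation factor eIF2, most translation slows, and the mRNA of the transcription factor ATF4 is translated more. With partners of the C/EBP family, ATF4 raises transporters, synthetic enzymes and tRNA charging enzymes, and later genes that favour cell death. H1-10 is a linker histone made in every phase of the cell cycle, and linker histones bind the DNA between nucleosomes. In prostate cancer cells androgens drive growth together with lipid synthesis. The transcript of H1-10, listed as H1FX, was at 450.4 and 464 TPM in vehicle and 401 and 433 TPM with Drug_CN27. Every Drug_CN27 library was below both vehicle libraries, but the log2 difference of -0.13 ± 0.06 (SE) did not pass (limma adjusted p = 0.09). It passed at -0.30 (adjusted p = 0.00656) under median-of-ratios scaling, at -0.13 (adjusted p = 0.015) with the replicate number as a block and at -0.19 (adjusted p = 0.0403) without Drug_CN27 replicate 2. After a correction for transcript GC content it turned to 0.13 (adjusted p = 0.0194). The transcript does not measure the protein or its activity.

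With Drug_CN27, most transcription factors and regulators listed for the stress response rose, as did many genes of amino acid supply. Most genes of mitosis, DNA replication, cholesterol synthesis and ribosome assembly fell. ASNS, which makes asparagine, rose from 203 ± 1.32 to 2596 ± 103 TPM (SD, n = 2), and CCNB1, the cyclin that starts mitosis, fell from 246 ± 0.116 to 25.2 ± 1.25 TPM. Genes of autophagy and vesicle fusion were mostly higher and chaperones of the cytosol and mitochondria mostly lower. Most androgen-response genes that were called fell. Means in TPM below are given ± SD with n = 2.

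The libraries of both groups held 12917 to 13138 genes with at least 1 TPM, and 18.1% to 19.6% of the TPM lay outside the table. The correlation of replicates over genes was r = 0.996 in vehicle and 0.994 with Drug_CN27. TPM keeps no sequencing depth, so no counting interval can be given. Defining markers of luminal prostate cells were present, with KRT8 between 482 and 788 TPM in the 4 libraries, although KLK3 reached only 7.71 TPM at most. The markers KRT5 and KRT14 of basal epithelium, CD3E of T cells and CDH5 of endothelium were listed at 0 in all 4. Of the fibroblast markers, LUM was between 13.3 and 22.7 TPM and COL1A1 between 6.56 and 11.6 TPM, while COL1A2 was at most 0.0582 TPM.

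Of the 13321 genes, limma called 9508 (71.4%) at an adjusted p under 0.05, 5883 higher and 3625 lower with Drug_CN27, which is 44.2% and 27.2% of the tested genes. At least 2-fold changes were fewer, with 997 genes higher (7.48%) and 656 lower (4.92%). In 6896 genes (51.8%) both Drug_CN27 libraries were above both vehicle libraries, and in 4428 (33.2%) both were below. The median gene moved by 0.15 on the log2(TPM + 1) scale, and by 0.00 with median-of-ratios scaling. The calls were then 4561 higher and 4690 lower, and with quantile normalization they were 4877 and 4479. A bare change is a difference on this log2 scale, Drug_CN27 minus vehicle, and TPM values are levels. Changes of gene groups are given as a relative median, the median log2 change of the tested members minus that of all tested genes. Changes also followed transcript GC content, with a median of 0.31 in the 20% of genes with the lowest GC content and -0.04 in the 20% with the highest. Of the tested genes, 341 passed the filter only through Drug_CN27 and 203 only through vehicle, and these could differ in 1 direction only.

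**Figure D1:**
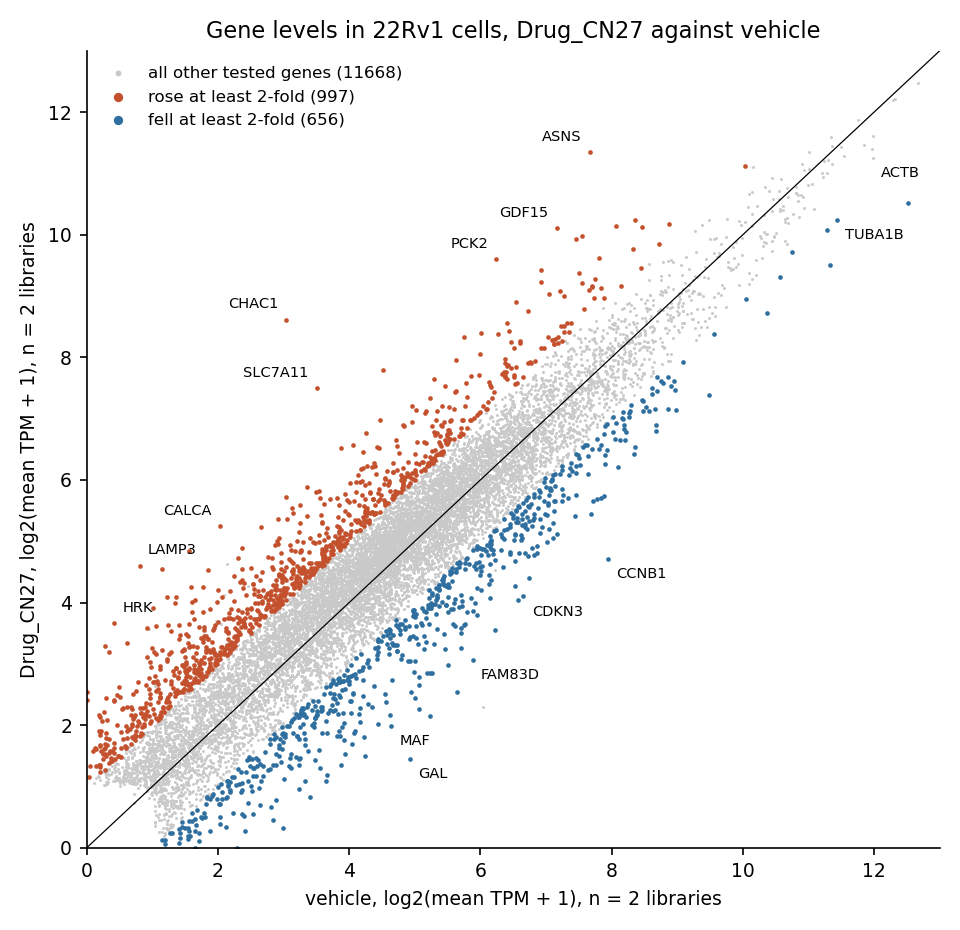
Each point is a tested gene, at log2(mean TPM + 1) in vehicle (horizontal) and with Drug_CN27 (vertical), with means of 2 libraries and a line of equal level. The 997 genes that rose at least 2-fold (orange) and the 656 that fell at least 2-fold (blue) flank the others (grey), with CHAC1, SLC7A11 and LAMP3 farthest above the line and GAL and CCNB1 farthest below among those labelled.

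The largest rises were led by genes of amino acid supply and glutathione turnover. CHAC1, an enzyme that breaks down glutathione, was at 7.55 and 6.95 TPM in vehicle and 379 and 401 TPM with Drug_CN27, a log2 change of 5.57 ± 0.07 (limma adjusted p = 1e-09). SLC7A11, which imports cystine in exchange for glutamate, was at 11.1 and 9.70 TPM in vehicle and 198 and 162 TPM with Drug_CN27. ASNS, which makes asparagine, was at 202 and 204 TPM in vehicle and 2669 and 2523 TPM with Drug_CN27. The 15 largest rises and the 15 largest falls were drawn only from genes whose groups did not overlap, so their separation is not a result. PCK2, a mitochondrial enzyme that makes phosphoenolpyruvate, was at 72.5 and 77.0 TPM in vehicle and 735 and 816 TPM with Drug_CN27 (log2 change 3.36 ± 0.07). MIOX, which oxidizes inositol, rose by 3.42 log2 units and SH3BGR by 2.68, the latter from 7.23 ± 0.0335 to 51.9 ± 5.71 TPM.

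Secreted factors and regulators of cell death and vesicles were also among the 15 largest rises. GDF15, a stress cytokine, was at 142 and 143 TPM in vehicle and 1038 and 1164 TPM with Drug_CN27, and CALCA, which encodes calcitonin and its gene-related peptide, was at 3.13 and 3.08 TPM in vehicle and 36.4 and 37.7 TPM with Drug_CN27. SPX, the precursor of the peptide spexin, rose from 1.35 ± 0.116 to 15.99 ± 1.30 TPM. HRK, which binds and opposes BCL2 proteins that keep cells alive, was at 0.335 and 0.342 TPM in vehicle and 12.1 and 11.2 TPM with Drug_CN27. HRK was below 1 TPM in both vehicle libraries. LAMP3, a lysosomal membrane protein, rose by 3.79 ± 0.10 log2 units, UNC13D, which primes vesicles for release, by 2.90 ± 0.10, and VLDLR, a lipoprotein receptor, by 2.70 ± 0.12. S100P, a calcium-binding protein, and ISL2, a homeobox factor, rose by 3.27 and 2.74 log2 units.

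Promoters of the most raised genes were read for the C/EBP-ATF response element (CARE), a motif bound by ATF4 with a C/EBP partner. It was searched as TGATGNAA on both strands, from 250 bases before to 50 bases after each RefSeq start. Of 15500 windows of 10652 tested genes, 1.90% held it. The share was 4.75% among genes that rose at least 2-fold and 10.2% among those that rose at least 4-fold, against 1.17% of those that fell at least 2-fold. Among the 11 largest rises with a window, ASNS, CALCA, CHAC1, HRK and S100P held it. A match is a description of the letters and not a site of binding. Windows of 3 of these genes are shown from 250 bases before the start to base 20 after it, since they hold the motif (in capitals) and rank among the largest rises. The CHAC1 window is chr15:40953221-40953490 on the plus strand, that of ASNS chr7:97872389-97872658 on the minus strand and that of HRK chr12:116881422-116881691 on the minus strand, all from RefSeq on GRCh38.p14. The match begins 68 bases before the start in ASNS, 75 in HRK and 209 in CHAC1, where it reads on the opposite strand.
CHAC1: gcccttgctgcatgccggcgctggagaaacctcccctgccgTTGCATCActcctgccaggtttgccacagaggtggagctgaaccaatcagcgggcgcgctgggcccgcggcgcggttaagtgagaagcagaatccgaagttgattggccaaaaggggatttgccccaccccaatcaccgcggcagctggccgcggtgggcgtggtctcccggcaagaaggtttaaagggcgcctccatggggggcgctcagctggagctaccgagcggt
ASNS: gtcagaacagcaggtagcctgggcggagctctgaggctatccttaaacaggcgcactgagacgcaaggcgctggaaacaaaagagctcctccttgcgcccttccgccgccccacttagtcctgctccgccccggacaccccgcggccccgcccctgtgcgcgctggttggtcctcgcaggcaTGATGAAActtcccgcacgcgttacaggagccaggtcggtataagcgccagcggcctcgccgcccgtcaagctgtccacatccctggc
HRK: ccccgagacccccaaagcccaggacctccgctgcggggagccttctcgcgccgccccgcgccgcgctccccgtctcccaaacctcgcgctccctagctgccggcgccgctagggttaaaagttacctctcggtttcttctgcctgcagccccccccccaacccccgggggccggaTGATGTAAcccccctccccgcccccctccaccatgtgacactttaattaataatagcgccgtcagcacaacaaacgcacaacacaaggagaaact

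The largest falls were led by genes of mitosis and by secreted or membrane proteins. CCNB1, the cyclin that starts mitosis, was at 246 and 246 TPM in vehicle and 26.1 and 24.3 TPM with Drug_CN27 (log2 change -3.24 ± 0.06, limma adjusted p = 2.04e-08). FAM83D, a spindle protein, was at 57.0 and 59.0 TPM in vehicle and 7.90 and 6.79 TPM with Drug_CN27, and CDKN3, a phosphatase that acts on cyclin-dependent kinases, was at 101.1 and 98.6 TPM in vehicle and 17.1 and 15.2 TPM with Drug_CN27. These falls, too, were drawn only from genes whose groups did not overlap. DLGAP5, which bundles spindle microtubules, fell from 44.6 ± 2.97 to 6.91 ± 1.10 TPM. PIMREG, a mitotic regulator, fell (log2 change -2.67 ± 0.14), as did PIF1, a DNA helicase (log2 change -2.75 ± 0.10). TUBA3D, an alpha tubulin with close copies and therefore uncertain, changed by -2.56 ± 0.12 log2 units.

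GAL, which encodes the neuropeptide galanin, had the lowest log2 change of the 15 falls named by rule (log2 change -3.48 ± 0.14) and was at 27.8 and 31.3 TPM in vehicle and 1.58 and 1.88 TPM with Drug_CN27. PLA2G3, a secreted phospholipase, was at 47.3 and 50.3 TPM in vehicle and 4.35 and 5.33 TPM with Drug_CN27, and CHRNA2, a nicotinic receptor subunit, was at 32.1 and 32.7 TPM in vehicle and 3.596 and 3.99 TPM with Drug_CN27. Groups that do not overlap were a condition for naming these 3 genes as well. MAF, a basic leucine zipper factor, fell from 23.8 ± 0.132 to 2.97 ± 0.131 TPM and STEAP3, a metalloreductase of iron uptake, from 13.7 ± 0.227 to 1.54 ± 0.072 TPM. HPDL, a mitochondrial dioxygenase-like protein, changed by -2.57 ± 0.10 log2 units and PRR15L by -2.56 ± 0.10.

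**Figure D2:**
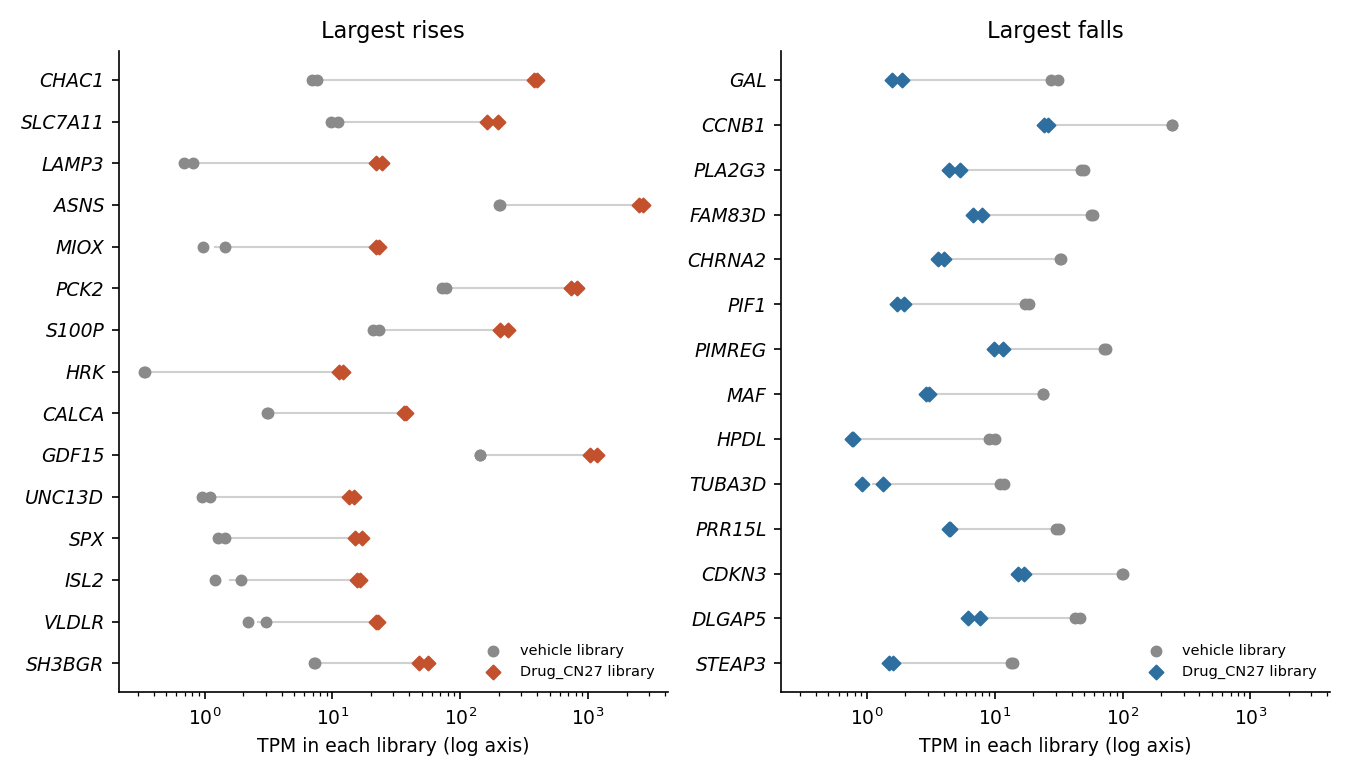
TPM of each library on a log axis for the largest rises (left) and the largest falls (right), with 2 vehicle libraries (grey circles) and 2 Drug_CN27 libraries (diamonds) per gene and a line joining the group means. The genes were chosen for groups that do not overlap, and run from CHAC1 at the top left to STEAP3 at the bottom right.

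Ranked by the amount of transcript gained, synthetic enzymes stood beside housekeeping genes. ASNS gained the most, and FTH1, the ferritin heavy chain, rose from 1137 ± 8.85 to 2211 ± 367 TPM. Reads of FTH1 could be shared with close copies, which makes its value uncertain. PHGDH and PSAT1, the first enzymes of serine synthesis, rose from 327 ± 6.53 to 1212 ± 107 TPM and from 175 ± 5.17 to 979 ± 70.1 TPM. ID1, an inhibitor of basic helix-loop-helix factors, rose from 268 ± 25.6 to 1130.2 ± 70.5 TPM, SLC3A2, the heavy chain of amino acid exchangers, from 186 ± 0.238 to 1014 ± 51.9 TPM, and EIF1, an initiation factor that guards the choice of start codon, from 352 ± 9.88 to 1111 ± 15.2 TPM.

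Most of the 10 largest losses of TPM were in abundant cytoskeletal genes. TMSB10, which binds actin monomers, was at 5827 and 5841 TPM in vehicle and 1374 and 1566 TPM with Drug_CN27, and PTMA, an acidic nuclear protein, was at 2579 and 2535 TPM in vehicle and 747 and 699.7 TPM with Drug_CN27. Both groups were far apart in each. TUBA1B, TUBB and TUBB4B, which encode tubulins, fell (log2 changes -1.19, -1.64 and -1.26), and the actins ACTB and ACTG1 (log2 changes -0.73 and -0.57). TMSB10, PTMA, the tubulins and the actins have close copies in the genome, so their values are uncertain. CKB, a creatine kinase, fell from 2479 ± 151 to 1080.2 ± 96.2 TPM, CALR, a chaperone of the endoplasmic reticulum, from 1714 ± 4.72 to 840.0 ± 26.4 TPM, and RPL8, a ribosomal protein with processed copies, from 4052 ± 159 to 3111 ± 259.6 TPM, although the log2 difference of RPL8 was 0.05 and not called under quantile normalization.

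Some genes crossed from near absence to a clear level or back. From under 1 TPM in both vehicle libraries to at least 5 TPM in both Drug_CN27 libraries went 9 genes, a rule chosen after their values were seen. They included RPS6KA2, a ribosomal S6 kinase (from 0.267 ± 0.0922 to 8.15 ± 0.0932 TPM), DMGDH, a mitochondrial enzyme of choline breakdown (from 0.529 ± 0.0934 to 9.18 ± 0.504 TPM), and the transporter SLC23A3 (from 0.886 ± 0.109 to 11.1 ± 1.57 TPM). HRK, LAMP3, ASPDH, RAI2 and MAGEC2 were also among them. The opposite crossing was seen in 5 genes, among them CYP1A2, a drug-metabolizing cytochrome (from 6.96 ± 0.041 to 0.257 ± 0.0107 TPM), MFSD2A, a carrier of lysophospholipids (from 5.997 ± 0.213 to 0.591 ± 0.0513 TPM), HPDL, and GLDC, a subunit of the glycine cleavage system (from 6.36 ± 0.480 to 0.709 ± 0.087 TPM).

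Transcription factors of the integrated stress response and regulators listed with them mostly rose. The list also counts genes such as PPP1R15A and TRIB3, which are not transcription factors. Of its 13 tested genes, 12 rose and 1 fell (relative median 1.79), and 9 rose at least 2-fold. ATF4 itself was at 458 and 475 TPM in vehicle and 1119 and 1198 TPM with Drug_CN27, and DDIT3, a C/EBP factor linked to stress-induced death, was at 68.2 and 73.7 TPM in vehicle and 181 and 184 TPM with Drug_CN27. Both groups were apart in each. Members with the largest statistics were PPP1R15A, which directs the phosphatase that resets eIF2 (log2 change 2.12), CEBPB (log2 change 2.35), TRIB3, a pseudokinase that restrains ATF4 (log2 change 2.11), and NUPR1 (log2 change 2.36). CEBPD was the member that fell (log2 change -0.54). The upstream kinases and eIF2 subunits moved little, with 6 higher and 2 lower of 14 (under median-of-ratios scaling 3 and 4), and a largest change of 0.49 in EIF2B4.

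Enzymes that make amino acids split into a strongly raised subset and a lowered one. Of 22 tested genes for serine, one-carbon, proline and asparagine synthesis, 13 rose and 5 fell, with 8 and 2 at least 2-fold. Besides ASNS, PCK2, PSAT1 and PHGDH, MTHFD2, the mitochondrial folate enzyme, rose by 2.03 log2 units. PYCR3 and SHMT1, cytosolic enzymes of proline and serine metabolism, fell (log2 changes -1.79 and -1.26), with SHMT1 at 79.1 and 79.0 TPM in vehicle and 31.8 and 33.2 TPM with Drug_CN27. The summed level of the list was 2668 and 2708 TPM in vehicle and 8070.0 and 8147 TPM with Drug_CN27. Amino acid transporters were also divided, with 12 higher and 10 lower of 28. SLC1A4 and SLC1A5, exchangers of neutral amino acids, rose by 2.51 and 1.43 log2 units, and SLC38A4, another neutral amino acid carrier, was at 18.7 and 16.6 TPM in vehicle and 2.45 and 2.56 TPM with Drug_CN27. Under median-of-ratios scaling 11 transporters were higher and 12 lower.

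Most cytosolic enzymes that charge tRNA with amino acids rose, while more of the mitochondrial ones fell than rose. Of 23 cytosolic synthetases, 15 rose and 6 fell (relative median 0.42, or 0.27 after GC correction), while of 17 mitochondrial ones 3 rose and 9 fell (relative median -0.36). SARS, the seryl-tRNA synthetase, was at 179 and 181 TPM in vehicle and 652 and 680.1 TPM with Drug_CN27, and GARS, the glycyl-tRNA synthetase, was at 215 and 210.4 TPM in vehicle and 635 and 605 TPM with Drug_CN27. CARS and WARS rose by 1.47 and 1.31 log2 units. Not all cytosolic members did, since QARS and FARSA fell (log2 changes -0.78 and -0.59). Among mitochondrial enzymes, SARS2 fell by 1.20 log2 units. CARE was held by 25.9% of 27 promoter windows of the cytosolic list, in AARS, CARS, GARS, IARS, MARS, NARS and TARS, which rose by 0.78 to 1.54 log2 units. The difference between both lists was not tested.

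Most antioxidant targets of NRF2, a factor that senses electrophiles, rose. Of 32 tested, 24 rose and 4 fell (relative median 0.59). NQO1, a quinone reductase, and TXNRD1, a thioredoxin reductase, rose by 2.06 and 1.67 log2 units, and GCLM, the regulatory subunit of glutathione synthesis, was at 15.3 and 14.8 TPM in vehicle and 64.0 and 57.8 TPM with Drug_CN27. ABCB6, a porphyrin transporter, fell by 0.70 log2 units. The wider list of glutathione and thioredoxin genes was divided, with 10 higher and 11 lower of 28, and PRDX4, a peroxiredoxin of the secretory pathway, fell by 0.98 log2 units. Brakes on the growth kinase mTORC1 included SESN2, at 26.8 and 27.9 TPM in vehicle and 115.6 and 121 TPM with Drug_CN27, and DDIT4, at 113 and 127 TPM in vehicle and 568 and 626 TPM with Drug_CN27. Of 17 such genes 8 rose and 4 fell (under median-of-ratios scaling 7 and 7), and DEPDC5, a subunit of the complex that relays amino acid shortage, fell by 0.59 log2 units.

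In the endoplasmic reticulum, most genes listed for degradation rose, while folding genes were divided. Of 24 genes listed for endoplasmic reticulum-associated degradation, 19 rose and 2 fell (relative median 0.31). This list is not of degradation genes alone, since it also counts XBP1. Of 26 chaperones and folding enzymes 10 rose and 13 fell (relative median -0.25). XBP1, a factor of the unfolded protein response, was at 148 and 148 TPM in vehicle and 541 and 544 TPM with Drug_CN27, and HERPUD1, a scaffold of the degradation complex, was at 94.2 and 98.2 TPM in vehicle and 302 and 295 TPM with Drug_CN27. ERN1, the kinase that splices XBP1, and ATF6 rose by 1.19 and 1.21 log2 units. PDIA4, a disulfide isomerase, was at 404 and 403 TPM in vehicle and 142 and 143 TPM with Drug_CN27, and MANF, a secreted resident protein, was at 295 and 302 TPM in vehicle and 109 and 109 TPM with Drug_CN27. HSP90B1 fell by 1.10 log2 units and CALR (log2 change -1.03), while DNAJB9, a co-chaperone, rose by 1.41. The summed level of the folding list was 7500.0 and 7515 TPM in vehicle and 5220.0 and 5230.0 TPM with Drug_CN27.

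Chaperones of other compartments were mostly lower. Of 33 cytosolic heat shock and chaperonin genes, 7 rose and 20 fell (relative median -0.35), and of 22 mitochondrial chaperones and proteases 7 rose and 15 fell (-0.56). TCP1, CCT5 and CCT6A, subunits of the ring that folds actin and tubulin, fell (log2 changes -0.89, -0.77 and -0.65). HSPA2, a relative of HSP70, was at 30.3 and 28.7 TPM in vehicle and 6.82 and 7.80 TPM with Drug_CN27. HSPD1, the mitochondrial chaperonin, fell from 1174 ± 24.4 to 649 ± 39.1 TPM, and GRPEL2, a nucleotide exchange factor of the same compartment, rose by 1.12 log2 units. HSPD1 and TCP1 have processed copies.

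Genes of cell death and growth arrest rose in part. Of 34 genes of the BCL2 family and caspases, 20 rose and 5 fell (relative median 0.17, and 15 and 6 under median-of-ratios scaling). Rises were 58.8% of this list against 44.2% of all tested genes. HRK, which is counted here, passed the filter only through Drug_CN27. BMF and BNIP3L, which promote death or mitophagy, rose by 1.34 and 1.22 log2 units, and MCL1, which opposes death, rose by 0.77. BCL2L12 was at 88.5 and 95.2 TPM in vehicle and 37.7 and 40.1 TPM with Drug_CN27. Of 33 p53 targets 18 rose and 2 fell, a share of rises not far above the 44.2% of all genes, with TP53INP1 at 18.1 and 16.1 TPM in vehicle and 76.4 and 66.3 TPM with Drug_CN27 and CDKN1A and GADD45A, which halt the cell cycle, higher by 1.01 and 1.13 log2 units. Genes of metal binding and zinc transport counted 17 higher and 5 lower of 26. The higher ones were led by metallothioneins, with MT2A at 117 and 125 TPM in vehicle and 645 and 729.9 TPM with Drug_CN27 and MT1X higher by 1.997 log2 units, while the zinc importer SLC39A8 fell by 0.97. Metallothionein genes have near-identical copies and are uncertain.

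Genes that build autophagosomes and acidify lysosomes were higher. Of 44 autophagy genes, 33 rose and 3 fell (relative median 0.39). SQSTM1, a cargo receptor, was at 92.7 and 98.9 TPM in vehicle and 299.7 and 313 TPM with Drug_CN27, and GABARAPL1, which is attached to autophagosome membranes, was at 18.6 and 15.4 TPM in vehicle and 60.6 and 62.2 TPM with Drug_CN27. The groups were apart in both. MAP1LC3B and CALCOCO2 rose by 1.73 and 1.51 log2 units, and TFEB, a factor that drives lysosomal genes, fell by 0.64. Of 19 subunits of the proton pump V-ATPase, 13 rose and 1 fell. The contents of the lysosome were mixed, with 26 higher and 15 lower of 47. IDUA, which degrades glycosaminoglycans, rose by 1.92 log2 units and PSAP, a precursor of sphingolipid activators, by 0.96, while the cathepsins CTSV, CTSC and CTSL fell (log2 changes -1.78, -1.82 and -0.99).

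Membrane traffic followed the same direction. Of 38 SNARE genes, whose proteins fuse vesicles with their targets, 30 rose and 1 fell (relative median 0.41), and STX2 was the one that fell (log2 change -0.47). STX3 was at 43.4 and 39.9 TPM in vehicle and 122 and 112 TPM with Drug_CN27, VAMP5 rose by 2.003 log2 units and VAMP2 by 0.84. Of 21 genes of the COPI and COPII coats 15 rose and 1 fell, with COPA, a subunit of the coat that returns proteins to the endoplasmic reticulum, at 133 and 125 TPM in vehicle and 327 and 318 TPM with Drug_CN27. Of 55 RAB GTPases, which direct vesicles, 32 rose and 9 fell, among them RAB14 and RAB10 (log2 change 1.11 and 1.17). RAB3B, a secretory member, was at 15.5 and 12.9 TPM in vehicle and 3.35 and 2.88 TPM with Drug_CN27. Sorting nexins and VPS genes counted 34 higher and 10 lower of 62 (relative median 0.14). The shares of rises were 58.2% for RAB genes and 54.8% for sorting nexins and VPS genes, against 44.2% of all tested genes. The latter share is not far above that of all genes.

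Other arms of protein turnover were less uniform. Among 46 proteasome genes, 14 rose and 16 fell and none changed 2-fold, while median-of-ratios scaling gave 6 higher and 23 lower. Ring finger proteins of the RNF and TRIM families, many of which are ubiquitin ligases, counted 61 higher and 22 lower of 112. F-box proteins counted 29 and 12 of 55. Rises were 54.5% and 52.7% of these lists, not far above the 44.2% of all tested genes. Under median-of-ratios scaling the counts were 50 and 28 for ring finger proteins and 24 and 12 for F-box proteins. FBXO32, a ligase raised in muscle wasting, rose by 1.54 log2 units. Of 32 ubiquitin-conjugating enzymes 16 rose and 8 fell (under median-of-ratios scaling 12 and 13). UBE2C, UBE2S and UBE2T, which act in mitosis or in DNA repair, fell (log2 changes -1.20, -1.21 and -1.38), whereas UBE2A rose by 1.25 log2 units.

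**Figure D3:**
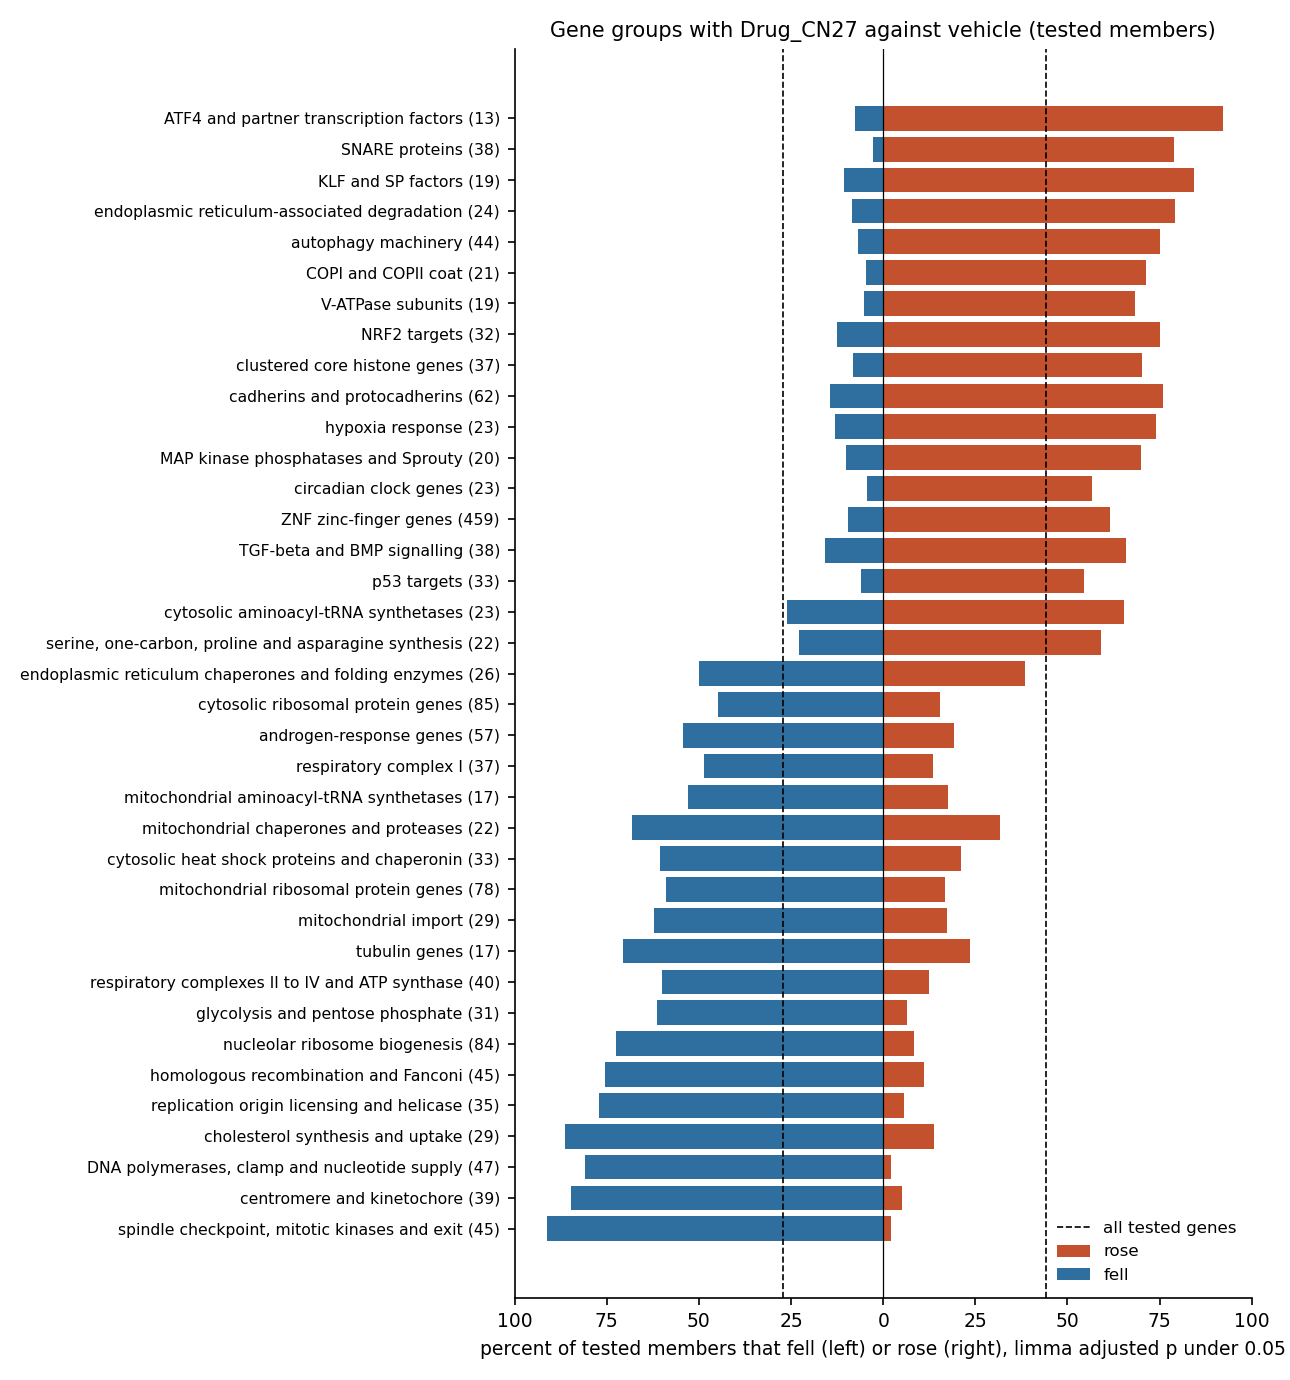
Percent of the tested members of 37 gene groups that rose (right, orange) or fell (left, blue) with Drug_CN27 at a limma adjusted p under 0.05, ordered by the difference, with the number tested in parentheses. Dashed lines mark the shares of all tested genes, 44.2% higher and 27.2% lower, which SNARE proteins and autophagy genes pass on the right and spindle and cholesterol genes on the left.

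Lipid genes were divided by pathway. Of 29 genes of cholesterol synthesis and uptake, 4 rose and 25 fell (relative median -1.05), and each tested member was called. FDPS and FDFT1, which build the isoprenoid chain and squalene, fell (log2 changes -1.44 and -1.35), EBP, a sterol isomerase, was at 125 and 132 TPM in vehicle and 40.7 and 43.7 TPM with Drug_CN27, and ACAT2, which supplies acetoacetyl-CoA, fell from 46.9 ± 0.173 to 13.8 ± 0.0502 TPM. INSIG2, which holds back the sterol-sensing factors SREBP, was at 4.90 and 4.33 TPM in vehicle and 11.2 and 8.95 TPM with Drug_CN27. Fatty acid synthesis was less uniform, with 8 higher and 12 lower of 27. FASN, the fatty acid synthase, was at 461 and 463 TPM in vehicle and 135 and 149 TPM with Drug_CN27, while ACSL1, which activates fatty acids, and SCD5, a desaturase, rose by 1.40 and 1.59 log2 units. Of 28 genes of fatty acid oxidation 14 rose and 7 fell (under median-of-ratios scaling 10 and 11), with the carnitine carrier SLC25A20 higher by 1.03 log2 units and the thiolase ACAA2 lower (log2 change -1.44).

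Most genes of sugar breakdown fell, while most genes of the hypoxia response rose. Of 31 genes of glycolysis and the pentose phosphate pathway, 2 rose and 19 fell (relative median -0.44). SLC16A3, a lactate exporter, was at 99.8 and 109 TPM in vehicle and 23.2 and 28.8 TPM with Drug_CN27, and PGAM1, LDHB and PFKM fell (log2 changes -0.87, -0.83 and -0.56). PGAM1 and LDHB have processed copies. Of 23 hypoxia response genes 17 rose and 3 fell (relative median 0.45), with EPAS1, a hypoxia-inducible factor, at 2.13 and 2.18 TPM in vehicle and 14.8 and 15.96 TPM with Drug_CN27 and the histone demethylase KDM3A higher by 1.07 log2 units. DDIT4 and BNIP3L are counted here too, and CA12 and LOX fell (log2 changes -0.96 and -1.18).

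Mitochondrial genes of energy metabolism and protein supply that were called were mostly lower. Of 37 genes of respiratory complex I, 5 rose and 18 fell, and of 40 genes of complexes II to IV and ATP synthase 5 rose and 24 fell (relative medians -0.36 and -0.41), the latter 1 and 31 under median-of-ratios scaling. ATP5MC1, the ring subunit of ATP synthase, was at 394 and 429 TPM in vehicle and 162 and 186 TPM with Drug_CN27, and ATP5IF1, the inhibitor of that enzyme, rose by 0.83 log2 units. Import genes counted 5 higher and 18 lower of 29, with TOMM40, the channel of the outer membrane, at 286 and 292 TPM in vehicle and 118 and 135 TPM with Drug_CN27. Of 78 mitochondrial ribosomal protein genes 13 rose and 46 fell (under median-of-ratios scaling 2 and 50), led by MRPS15 (log2 change -1.48) and MRPL12 (log2 change -1.34). In the TCA cycle and pyruvate entry, 7 rose and 15 fell of 31. PDK4, the kinase that closes pyruvate entry, was at 18.3 and 17.8 TPM in vehicle and 115 and 99.99 TPM with Drug_CN27, and FH, fumarase, fell by 0.68 log2 units.

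Most genes of ribosome assembly fell. Of 84 nucleolar genes of ribosome biogenesis, 7 rose and 61 fell (relative median -0.60), and of 85 cytosolic ribosomal protein genes 13 rose and 38 fell (-0.27, or -0.03 with quantile normalization, and 3 higher and 49 lower under median-of-ratios scaling) and none of them changed 2-fold. The difference between both lists was not tested. LYAR, a nucleolar growth regulator, was at 71.3 and 66.5 TPM in vehicle and 18.9 and 18.4 TPM with Drug_CN27, and NHP2 and FBL, of the guide RNA complexes that modify ribosomal RNA, fell (log2 changes -1.19 and -0.996). MYC, which drives many of these genes, was at 232 and 226 TPM in vehicle and 89.5 and 97.9 TPM with Drug_CN27. Its antagonists MXD1 and MXD4 rose by 1.48 and 0.76 log2 units. Genes of RNA polymerases I and III counted 8 higher and 13 lower of 36, and CD3EAP and POLR3G, a subunit of each, fell (log2 changes -1.52 and -1.75). RRP12, a ribosome export factor, was among the 7 nucleolar genes that rose (log2 change 0.55); ribosomal protein genes have many processed copies, so their values are uncertain.

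The E-box, the motif CACGTG that MYC and MAX and other proteins bind, was searched on both strands of the same promoter windows. It stood in 36.7% of 79 windows of the nucleolar list against 9.34% of all windows. The LYAR window is shown because this gene had the lowest change of the nucleolar list and holds the motif. It lies at chr4:4290002-4290271 on the minus strand (RefSeq, GRCh38.p14), and the motif, in capitals, begins 64 bases before the start.
LYAR: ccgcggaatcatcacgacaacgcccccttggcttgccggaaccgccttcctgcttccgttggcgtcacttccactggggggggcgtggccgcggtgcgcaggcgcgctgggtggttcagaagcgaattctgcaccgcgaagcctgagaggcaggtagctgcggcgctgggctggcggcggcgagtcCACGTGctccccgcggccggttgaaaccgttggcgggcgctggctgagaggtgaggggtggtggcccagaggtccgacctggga

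Initiation factors had no shared direction, with 12 higher and 9 lower of 36 (under median-of-ratios scaling 9 and 17). EIF1 and its paralog EIF1B rose by 1.66 and 1.04 log2 units, and EIF4A2, a helicase, was at 153 and 146 TPM in vehicle and 385 and 342 TPM with Drug_CN27. Its paralog EIF4A1 fell by 0.82 log2 units, and EIF5A, which relieves stalled ribosomes, (log2 change -0.75). EIF1, EIF5A and EIF4A1 have processed copies.

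Genes of mitosis had the lowest relative median of the lists described. Of 45 genes of the spindle checkpoint, mitotic kinases and mitotic exit, 1 rose and 41 fell (relative median -1.48), 34 of them at least 2-fold. PLK1, a kinase of spindle assembly, was at 217 and 221 TPM in vehicle and 48.3 and 52.3 TPM with Drug_CN27, BIRC5, of the chromosomal passenger complex, was at 206 and 214 TPM in vehicle and 48.6 and 50.1 TPM with Drug_CN27, and AURKB, the kinase of that complex, fell by 2.02 log2 units. Of 39 centromere and kinetochore genes 2 rose and 33 fell (-0.90), with CENPF at 55.8 and 50.7 TPM in vehicle and 12.6 and 10.5 TPM with Drug_CN27. In bulk RNA, fewer cells in mitosis and less of these transcripts per cell cannot be told apart. FZR1, which activates the anaphase-promoting complex after mitosis, was the member that rose (log2 change 0.27), a call lost with median-of-ratios scaling.

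Replication genes were lower as well. Of 35 genes of origin licensing and the helicase, 2 rose and 27 fell (relative median -0.87), and of 47 genes of DNA polymerases, their clamp and nucleotide supply 1 rose and 38 fell (-0.82). CDC45, part of the helicase, was at 92.1 and 103 TPM in vehicle and 31.5 and 31.7 TPM with Drug_CN27, and MCM7 and MCM5, of its ring, fell (log2 changes -0.94 and -1.10). CTPS1, which makes CTP, was at 105 and 85.9 TPM in vehicle and 29.03 and 24.7 TPM with Drug_CN27, and POLE2 fell by 1.66 log2 units. Cyclins, their kinases and inhibitors counted 9 higher and 30 lower of 44. CDKN1B, an inhibitor of these kinases, was at 62.5 and 58.5 TPM in vehicle and 135 and 129 TPM with Drug_CN27, and CCND1, a G1 cyclin, rose by 0.48 log2 units, whereas CDKN2C, another inhibitor, fell by 2.12.

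Promoters of both sets were read for motifs of cell cycle control. The cell cycle homology region (CHR, searched as TTTGAA on both strands), which MuvB complexes bind in genes of late cell cycle phases, stood in 62.8% of 43 windows of the mitotic list against 10.2% of all windows. The CCAAT box (CCAAT), bound by NF-Y, stood in 72.1% of the mitotic and 60.5% of the licensing windows against 34.9% of all, and also in 63.3% of 30 cholesterol windows. In the licensing list the E2F site (TTTNNCGC) stood in 44.7% of 38 windows against 9.59% of all, and CHR in 2.63%. Windows of PLK1 from the mitotic list, CDKN3 from the largest falls and CDC6 from the licensing list are shown as examples. Each runs from 250 bases before the start to base 20 after it, with every CHR, CCAAT box and E2F site in capitals. The windows lie at chr16:23678639-23678908, chr14:54396757-54397026 and chr17:40287629-40287898, each on the plus strand (RefSeq, GRCh38.p14). CHR begins 29 bases before the start in PLK1 and 170 in CDKN3, and the E2F site begins at base 8 of the CDC6 transcript. CDKN3 and CDC6 hold more than 1 CCAAT box and PLK1 holds 1. CDC6, which loads the helicase, fell by 1.03 log2 units.
PLK1: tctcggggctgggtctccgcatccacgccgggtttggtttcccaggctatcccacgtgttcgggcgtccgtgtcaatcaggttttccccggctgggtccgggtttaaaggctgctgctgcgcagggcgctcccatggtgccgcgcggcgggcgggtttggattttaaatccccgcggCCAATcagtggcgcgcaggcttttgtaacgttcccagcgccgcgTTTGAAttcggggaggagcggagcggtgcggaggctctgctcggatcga
CDKN3: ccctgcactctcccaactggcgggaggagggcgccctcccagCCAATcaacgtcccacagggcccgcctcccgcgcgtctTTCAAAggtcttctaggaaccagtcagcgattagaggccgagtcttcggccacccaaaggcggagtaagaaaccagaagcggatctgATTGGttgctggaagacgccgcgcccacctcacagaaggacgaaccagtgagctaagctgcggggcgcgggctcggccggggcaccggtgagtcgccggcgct
CDC6: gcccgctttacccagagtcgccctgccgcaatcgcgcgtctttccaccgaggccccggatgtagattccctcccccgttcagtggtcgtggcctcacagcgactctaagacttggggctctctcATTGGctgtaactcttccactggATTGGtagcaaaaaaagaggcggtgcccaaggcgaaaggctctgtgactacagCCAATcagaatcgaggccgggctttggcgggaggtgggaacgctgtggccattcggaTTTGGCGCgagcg

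Further motifs were searched on both strands of the same windows. The sterol regulatory element (SRE, TCACNCCAC), bound by SREBP factors, stood in 1 of 30 windows of the cholesterol list against 1.11% of all windows. The metal response element (MRE, TGCNCNC) stood in 61.5% of 26 windows of the metal list against 63.0%, and the antioxidant response element (ARE, TGACNNNGC) in 30.3% of 33 windows of NRF2 targets against 14.2%.

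**Figure D4:**
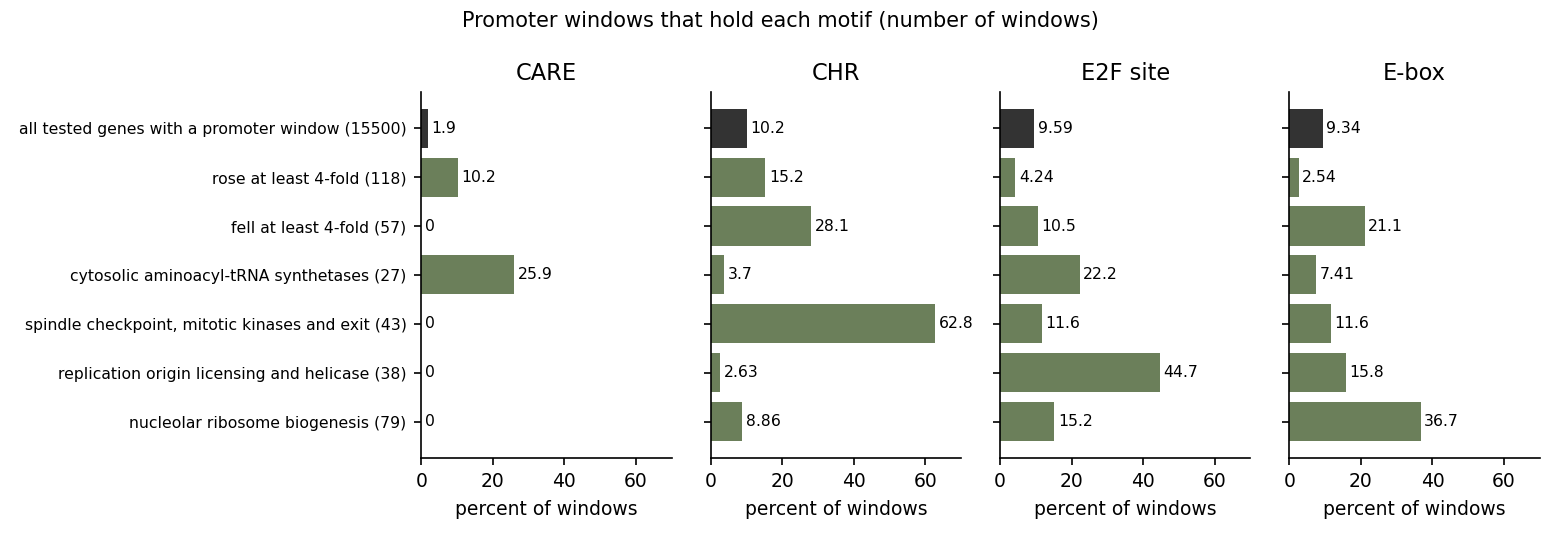
Percent of RefSeq promoter windows (250 bases before to 50 after the start) that hold CARE, CHR, the E2F site or the E-box, for all tested genes (black) and 6 sets (green), with the number of windows in parentheses. CARE is most frequent in cytosolic synthetases (25.9%), CHR in the mitotic list (62.8%), the E2F site in the licensing list (44.7%) and the E-box in the nucleolar list (36.7%).

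Most called repair and tubulin genes were lower as well, while kinesin genes were divided. Of 45 genes of homologous recombination and the Fanconi pathway, 5 rose and 34 fell (relative median -0.73), with EME1 and CHEK2 lower (log2 changes -1.32 and -1.25) and MUS81, a nuclease, higher by 0.88 log2 units. Mismatch and excision repair genes counted 7 higher and 18 lower of 38, led by the glycosylase NTHL1 (log2 change -1.24). Of 17 tubulin genes 4 rose and 12 fell, with TUBE1, a centriole tubulin, at 19.9 and 19.6 TPM in vehicle and 79.9 and 72.7 TPM with Drug_CN27 and TUBA1A higher by 1.19 log2 units, the latter uncertain for its close copies. Of 34 kinesin genes 14 rose and 16 fell. Among those with the largest statistics, KIF18B, KIF23 and KIF2C, motors of the spindle, fell (log2 changes -2.03, -1.99 and -1.90), while KIF1A and KIF21B, motors best known from neurons, rose by 1.602 and 1.49 log2 units.

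Most core histone genes above the filter rose. Calls in the histone clusters numbered 26 up, 14 of them at least 2-fold, and 3 down among 37 tested (relative median 0.61). Only 37 of 66 such genes passed the filter, most of their transcripts end without poly(A), and each value is uncertain because the genes resemble one another so closely. HIST1H2AC was at 6.35 and 6.73 TPM in vehicle and 39.5 and 40.6 TPM with Drug_CN27 and HIST1H2BN rose by 2.05 log2 units. Linker histones H1F0 and HIST1H1C rose by 0.70 and 0.41 log2 units, and the variants H3F3B and H3F3A, with processed copies, by 1.14 and 0.61. H2AFX, the variant that marks broken DNA, was at 353 and 385 TPM in vehicle and 141 and 148 TPM with Drug_CN27, and CENPA, the centromere variant, fell by 2.41 log2 units. CHAF1B and CHAF1A, which place histones behind the replication fork, fell (log2 changes -1.29 and -0.92).

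In the largest family described, the ZNF zinc-finger genes, most members rose. Of 459 tested, 283 rose and 44 fell (relative median 0.25) (under median-of-ratios scaling 231 and 72), and 57 rose at least 2-fold. ZNF419 was at 9.65 and 8.77 TPM in vehicle and 43.1 and 40.1 TPM with Drug_CN27, and ZNF528, ZNF773 and ZNF677 rose by 2.06, 1.85 and 1.72 log2 units. ZNF511 and ZNF296 fell (log2 changes -1.23 and -1.01). KLF and SP factors counted 16 higher and 2 lower of 19, led by KLF10 (log2 change 1.94), a target of TGF-beta, and KLF13 (log2 change 1.75). Of 39 enzymes and readers of histone acetylation 22 rose and 4 fell, with the acetyltransferase KAT2B at 6.70 and 6.19 TPM in vehicle and 16.7 and 14.8 TPM with Drug_CN27 and its paralog KAT2A at 117 and 123 TPM in vehicle and 61.5 and 66.2 TPM with Drug_CN27. The demethylases KDM4A and KDM5B rose by 1.14 and 1.06 log2 units, and EZH2 and PRMT5, methyltransferases, fell (log2 changes -0.82 and -0.72).

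Among RNA processing genes, calls for SR proteins and hnRNPs were mostly lower, while spliceosomal core genes and importins and exportins were evenly split. Of 37 SR proteins and hnRNPs, 9 rose and 18 fell (relative median -0.29), with SRSF2, a splicing factor, at 277 and 279 TPM in vehicle and 98.3 and 100.8 TPM with Drug_CN27 and HNRNPH3 higher by 1.24 log2 units. Spliceosomal core and LSM genes counted 17 higher and 17 lower of 49, and importins and exportins 8 and 8 of 22. Scaled by median of ratios these became 10 and 25 for the former and 6 and 13 for the latter. Genes of THO, TREX and nuclear export counted 1 higher and 6 lower of 11, and nucleoporins 3 and 7 of 21. ALYREF, an mRNA export adaptor, fell by 1.07 log2 units and the spliceosomal protein SNRPA1 (log2 change -1.43). KPNA2 and IPO4, nuclear import receptors, fell (log2 changes -1.30 and -1.46). DDX39A, a helicase of export, was at 297 and 315 TPM in vehicle and 126 and 134 TPM with Drug_CN27.

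Signalling genes that rose included feedback regulators of several pathways. Of 38 genes of TGF-beta and BMP signalling, 25 rose and 6 fell (relative median 0.36). SMAD7, an inhibitory SMAD, was at 11.2 and 10.8 TPM in vehicle and 37.6 and 38.7 TPM with Drug_CN27, SMAD9 was at 12.7 and 11.5 TPM in vehicle and 53.05 and 47.7 TPM with Drug_CN27, and SMAD1 rose by 1.36 log2 units. The groups did not overlap in any of them. ID2 and ID3, known targets of BMP signals beside ID1, rose from 85.2 ± 4.67 to 344 ± 27.7 TPM and from 321 ± 19.2 to 867 ± 50.2 TPM, and HES1, a Notch target, rose by 1.59 log2 units, while HES2 fell by 1.27. MAP kinase phosphatases and Sprouty genes counted 14 higher and 2 lower of 20. DUSP1, which switches off stress kinases, was at 20.9 and 21.3 TPM in vehicle and 124 and 126 TPM with Drug_CN27, and DUSP9 was at 15.8 and 16.2 TPM in vehicle and 2.94 and 2.58 TPM with Drug_CN27. In the AP-1 family 12 rose and 3 fell of 17, with FOS at 13.8 and 13.5 TPM in vehicle and 88.2 and 92.6 TPM with Drug_CN27 and BATF3 lower (log2 change -1.64).

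Other growth and immune pathways changed in both directions. Wnt genes counted 14 higher and 12 lower of 37 (under median-of-ratios scaling 13 and 16). WNT9A rose by 1.45 log2 units and WNT10B fell by 2.05. NF-kB subunits and feedback targets counted 7 and 7 of 19, with NFKBIZ, an atypical inhibitor, at 6.87 and 5.999 TPM in vehicle and 31.8 and 30.4 TPM with Drug_CN27. CTGF and CYR61, matricellular targets of YAP, rose by 2.23 and 1.48 log2 units. Of 32 genes of interferon response and antigen presentation 17 rose and 8 fell. IRF7 and ISG20 rose by 1.76 and 1.74 log2 units, while IFITM1, a membrane protein that blocks virus entry, was at 13.5 and 15.2 TPM in vehicle and 1.89 and 1.87 TPM with Drug_CN27. Peptide hormones had changes in both directions, since besides CALCA and GAL the hormones ADM2 and STC2 rose by 2.10 and 2.29 log2 units and STC1, APLN and NPY fell (log2 changes -2.23, -1.505 and -1.65).

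Androgen-response genes were mostly lower, while luminal epithelial genes were called at shares close to those of all genes. Of 57 androgen-response genes, 11 rose and 31 fell (relative median -0.47), with FKBP5, a co-chaperone of steroid receptors, at 741 and 693 TPM in vehicle and 175 and 159 TPM with Drug_CN27 and HPGD, which inactivates prostaglandins, lower (log2 change -1.78). DBI and STEAP1 fell (log2 changes -2.23 and -1.44). Of 24 luminal markers 12 rose and 5 fell. FOLH1, prostate-specific membrane antigen, was at 208 and 205 TPM in vehicle and 593 and 549 TPM with Drug_CN27, CLDN7, a tight junction protein, was at 219.6 and 225 TPM in vehicle and 759 and 809.6 TPM with Drug_CN27, and KRT7 fell by 1.65 log2 units. The lineage factors ETV5, ETV1 and GRHL2 rose by 2.53, 1.38 and 0.99 log2 units, and HOXB13 and SPDEF fell (log2 changes -0.51 and -0.61).

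Enzymes that inactivate androgens differed among close relatives, with UGT2B15 at 6.65 and 7.15 TPM in vehicle and 21.9 and 18.5 TPM with Drug_CN27 and UGT2B11 and UGT2B28 lower (log2 changes -1.53 and -1.13). These genes share sequence and are uncertain. Of 18 neuroendocrine and neuronal markers 5 rose and 9 fell, with DDC, which makes dopamine and serotonin, at 6.57 and 7.55 TPM in vehicle and 1.12 and 1.23 TPM with Drug_CN27, CHGA lower (log2 change -1.11) and CHGB higher by 0.78 log2 units. Most cadherins and protocadherins rose, with 47 higher and 9 lower of 62, while laminins and collagens were divided, with 10 higher and 8 lower of 25. CDH2, neural cadherin, was at 2.15 and 1.94 TPM in vehicle and 13.8 and 12.9 TPM with Drug_CN27. Protocadherin clusters share exons, so PCDHGA6 (log2 change 1.89) and the count of cadherins and protocadherins are uncertain. ITGA5, an integrin subunit that binds fibronectin, rose by 1.56 log2 units.

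Most circadian clock genes that were called rose. Of 23 circadian clock genes, 13 rose and 1 fell (relative median 0.21, or 0.39 after GC correction), with NFIL3 at 3.23 and 3.86 TPM in vehicle and 13.2 and 11.8 TPM with Drug_CN27, BHLHE40 and PER2 higher by 1.27 and 0.96 log2 units, and DBP, an output factor, lower (log2 change -1.12). Potassium channel genes counted 8 higher and 14 lower of 39, where KCND1 rose by 2.43 log2 units and KCNH6 fell by 1.88. The TMEM and FAM genes, grouped by name alone, stayed near the shares of all genes. TMEM genes were at 84 higher and 57 lower of 184 and FAM genes at 72 and 35 of 158. Of 13 fibroblast and smooth muscle markers 6 were tested, with 3 higher and 3 lower, and their summed level was 54.7 and 54.8 TPM in vehicle and 70.3 and 69.4 TPM with Drug_CN27. Their part in other changes was not tested. Of 10 basal markers 2 were tested and both fell.

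**Figure D5:**
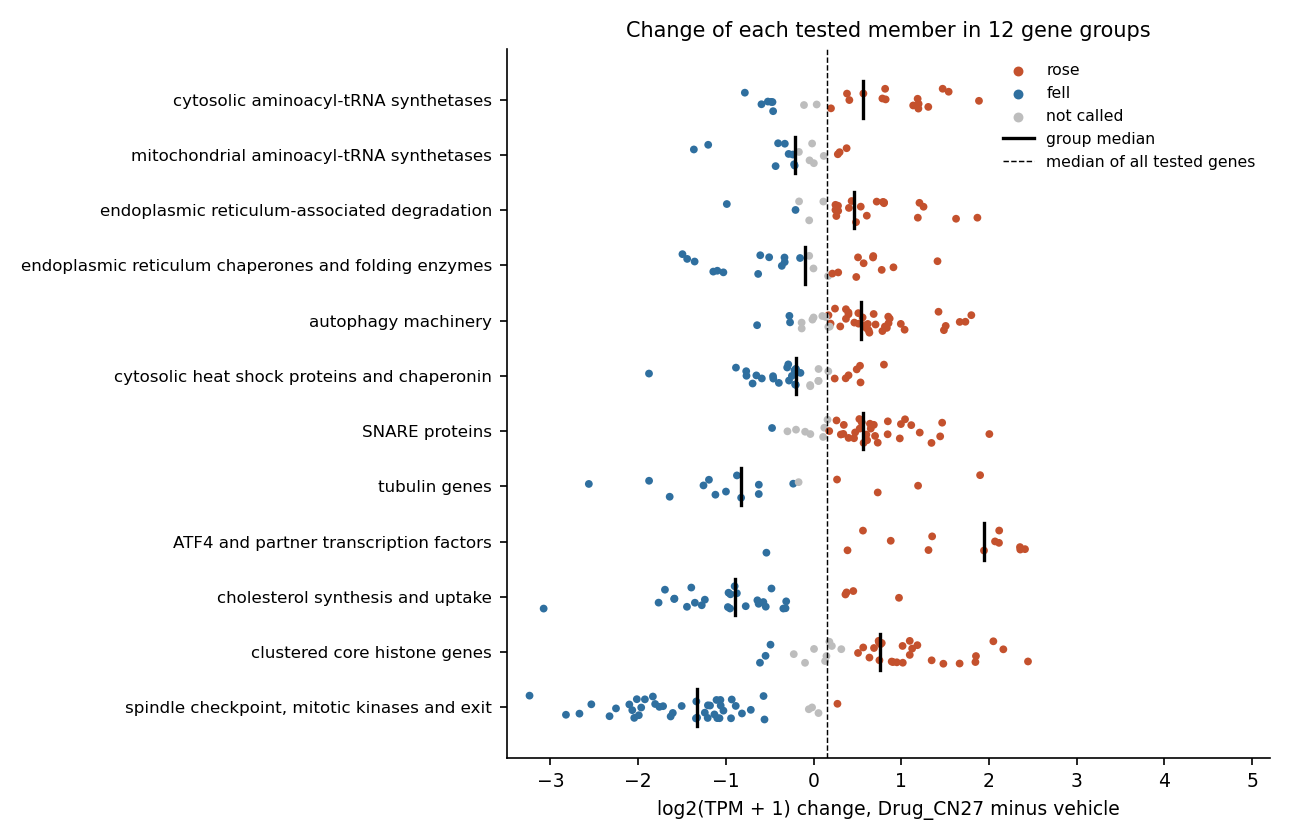
Change of each tested member (points) of 12 gene groups on the log2(TPM + 1) scale, Drug_CN27 minus vehicle, coloured by call, with the group median (bar) and the median of all tested genes (dashed, 0.15). Cytosolic synthetases lie right of mitochondrial ones, and the degradation list, which also counts XBP1, right of the folding list. The mitotic list has the lowest median, with 41 of 45 members called lower.

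Set beside Drug_0120 in the same fit, Drug_CN27 had 7041 genes higher (52.9%) and 2960 lower (22.2%), with a median difference of 0.28. The doses are not known to match, and 28.0% to 28.8% of the TPM lay outside the table with Drug_0120 against 18.3% to 19.6% with Drug_CN27, and what part this has in the differences was not tested. CHAC1 was at 65.3 and 63.6 TPM with Drug_0120, below both Drug_CN27 libraries (log2 difference 2.58). PCK2 was at 58.0 and 57.2 TPM and PHGDH at 192 and 209 TPM with Drug_0120, differences of 3.73 and 2.59. GDF15 was at 5087 and 5406 TPM with Drug_0120, above both Drug_CN27 libraries (-2.25). CCNB1 was at 23.2 and 23.8 TPM with Drug_0120, and the difference of 0.09 did not pass (limma adjusted p = 0.208). By group, 20 of 23 cytosolic synthetases and 38 of 45 mitotic genes were higher with Drug_CN27 than with Drug_0120. Of 459 ZNF genes, 66 were higher and 268 lower, and of 33 p53 targets 1 was higher and 25 lower.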

How the data were processed

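RNA sequencing gave 1 table of TPM values that the authors made and deposited, with STAR, StringTie and hg19 named in the submitters' processing notes. Tool versions, annotation, strandedness and any filters are not stated there. Second copies of pseudoautosomal genes (18) were dropped, and names and GC content came from GENCODE 29. Differences were computed on log2(TPM + 1) with limma 3.58.1 in R 4.3.3, in 1 fit over the 6 libraries with a mean-variance trend and no block. P-values were Benjamini-Hochberg adjusted over 13321 genes with a threshold of 0.05. The fit was run on simulated data in which far fewer genes changed than were called here. That run therefore does not measure the error of these calls. Fitted changes of low genes are understated by the pseudocount of 1.

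Named genes were the 15 largest changes each way with a mean of at least 5 TPM and groups apart, the 10 largest gains and losses of TPM, up to 4 called members per direction of a list by moderated statistic, and H1FX. A few more (such as ATF4, DDIT3, MCL1 and CDC6) were chosen after their values were seen, and some genes picked by the rule are left unreported. Members and lists were chosen with earlier results of these data known. Promoter windows were RefSeq's on GRCh38.p14, with genes matched by symbol, and no files' coordinates were used. Scalings, pseudocount, filters, moderation, a replicate block and leaving out each library were tried as alternatives.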

Additional observations from a re-analysis of the deposited data

How the results depend on the processing

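Under 15 alternatives and 2 more added after seeing the data (a correction for transcript GC content and a filter of 1 TPM on the mean), the counts over all genes of called, higher, lower and at least 2-fold changed genes stayed within 1.5 times their values. Counts of genes with groups apart were not recomputed. Counts within lists moved more, and under median-of-ratios scaling autophagy genes were 28 higher and 7 lower, SNARE genes 25 and 5, nucleolar genes 2 and 68 and histone acetylation genes 16 and 7. The count of called genes ran from 7892 with a filter of 5 TPM on the mean to 10218 with the replicate block. The split was 61.9% higher and 38.1% lower, which became 49.3% and 50.7% when scaled by median of ratios, and 52.1% and 47.9% after quantile normalization. For H1FX the difference of -0.13 passed at -0.30 (adjusted p = 0.00656) with median-of-ratios scaling, at -0.13 (adjusted p = 0.015) with the replicate block and at -0.19 (adjusted p = 0.0403) without Drug_CN27 replicate 2. It reversed to 0.13 (adjusted p = 0.0194) with the GC correction, and the cause was not tested. Leaving out each library in turn gave H1FX values from -0.19 to -0.0788. Among genes named, RPL8 reversed to 0.0529 with quantile normalization and was not called. FZR1 missed the threshold under 4 alternatives, at 0.11 to 0.21. Same-numbered libraries deviated together at a correlation of 0.165 for vehicle with Drug_CN27, 0.186 for vehicle with Drug_0120 and 0.15 for Drug_0120 with Drug_CN27. With only 2 numbers, whether the number is more than a label cannot be told, and the main fit used no block. The replicate block called 6300 genes higher and 3918 lower. Without depth in TPM, the precision of low genes cannot be given.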
